A study of Mus musculus with 15 samples.

Results

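TH17 cultures treated with the compound Srci1, for which the labels give a code name and no structure, were compared gene by gene with Treg cultures that received the solvent DMSO. The comparison used 6 of the 15 mouse RNA-seq libraries of the series, 3 on each side, chosen by the cell type and treatment in their labels. Of 55421 genes in the table, 11852 had at least 1 TPM in at least 3 of these 6 libraries and were tested. A gene could therefore enter the test through 1 group alone, the group where it was high. Both groups were wild type and were harvested on day 5. They started from naive CD4 T cells of spleen and lymph node (CD25- and low CD44, among other markers), plated on anti-CD3 at 2 µg/ml with anti-CD28 at 1 µg/ml. Antibodies against IFNγ and IL-4, at 1 µg/ml each, were in both media. The TH17 medium held TGFβ at 2.5 ng/ml with IL-6, IL-1β and IL-23 at 10 ng/ml each, and Srci1 was given 24 h into the culture, at a concentration not given in the sources used here. The Treg medium held IL-2 at 200 U/ml and TGFβ at 0.5 ng/ml, or a different dose that the sources used here do not give for these libraries. The 2 groups therefore differ in cytokines, in TGFβ dose and in the compound at once, and the parts that these play in any difference below cannot be told apart. Levels in the other 3 groups of 3 libraries are set beside the results as a reference. These were wild-type TH17 cultures with DMSO, wild-type Treg cultures with Srci1, and TH17 cultures with DMSO from mice with floxed STAT3 alleles and a CD4-cre (the STAT3 knockout), in which the Cre acts in T cells.

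TH17 cells are helper T cells that depend on the transcription factor STAT3 and secrete IL-17A, IL-17F, IL-21 and IL-22. Regulatory T cells depend on FOXP3, carry the high-affinity IL-2 receptor chain CD25 and the checkpoint receptor CTLA-4, and restrain other T cells. Both lineages need TGFβ, and IL-6 acting through STAT3 favours the TH17 over the Treg fate, so that FOXP3 and TH17 genes can be found side by side in cells cultured with TGFβ.

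TPM, the unit of the table, corrects each gene for its length and each library for its total, so levels can be compared between genes. Sequencing depth cannot be read from TPM, and no counting interval was computed. Values are given per library in label order, or as mean TPM ± SD with n = 3 libraries. Differences are Srci1 TH17 minus DMSO Treg on the log2(TPM + 1) scale, which understates the change of low genes. Calls of at least 2-fold and the intervals use this scale. Folds given for single genes are ratios of mean TPM, which were not the quantity tested. Where a mean is under 1 TPM, such a fold rests on values near the floor. They were tested with limma over all tested genes, and a gene is called where the Benjamini-Hochberg adjusted p is under 0.05. Whether the 3 libraries of a group stem from separate mice or separate cultures is not stated in the labels. The p-values therefore reflect no more than library-to-library spread, possibly a technical one. In bulk RNA, fewer cells of a type and less transcript per cell cannot be told apart. Across tested genes, libraries of the same group correlated at r = 0.984 to 0.988 and libraries of different groups at r = 0.933 to 0.936. Ribosomal protein genes took 22.0 ± 0.592% of TPM in Srci1 TH17 libraries and 24.9 ± 0.175% in DMSO Treg libraries. Mitochondrially encoded genes took 4.46 ± 0.249% and 3.54 ± 0.129%. In both cases the groups did not overlap (two-sided exact permutation p = 0.1, the smallest that 3 libraries against 3 allow).

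Effector genes were among those with large differences between the cultures, with TH17 cytokines higher and cytotoxic genes lower in Srci1 TH17 cultures. limma called 2532 genes higher in Srci1 TH17 cultures, 21.4% of those tested, and 1859 genes lower, 15.7%. At least 2-fold differences were called for 552 higher genes (4.66%) and 570 lower genes (4.81%). Most genes were close on the log2(TPM + 1) scale: 9307 genes (78.5%) had a 95% interval of the difference that lay within 2-fold in either direction, and 5728 (48.3%) within 1.5-fold. This scale draws low genes toward 0, so a low gene can be counted here although its TPM ratio is larger. Of the 7461 genes not called, 628 had an interval that reached past 2-fold, so for these the libraries did not settle a large difference. The median difference over all tested genes was 0.04, and the same median was -0.01 after median-of-ratios scaling.

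**Figure D1:**
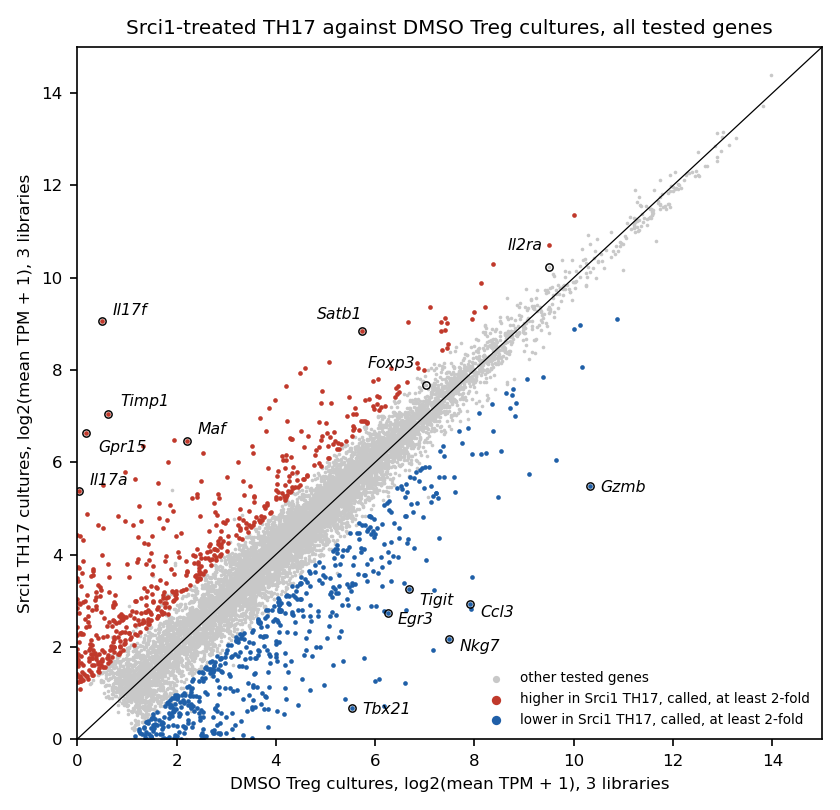
Mean level of each tested gene in the 3 Srci1 TH17 libraries (vertical) against the 3 DMSO Treg libraries (horizontal), both as log2(mean TPM + 1), with the line of equality. Coloured points are the 552 higher and 570 lower genes called with at least 2-fold difference. Il17f, Gpr15 and Timp1 lie far above the line, Gzmb, Nkg7 and Tbx21 far below it, and Foxp3 and Il2ra lie above it by less than 2-fold.

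Foxp3, the gene of the transcription factor that defines regulatory T cells (chrX:7573644-7595245, plus strand of GRCm38), was more abundant in the Srci1 TH17 cultures than in the Treg cultures. The Srci1 TH17 libraries held 194, 208 and 209 TPM and the DMSO Treg libraries 131, 131 and 127 TPM. All 3 Srci1 TH17 libraries lay above all 3 Treg libraries, by a difference of 0.65 ± 0.10 (SE), or 1.57-fold (limma adjusted p = 0.000154). The DMSO TH17 libraries held 12.2, 13.6 and 9.37 TPM, the Srci1-treated Treg libraries 257, 279 and 270.1 TPM and the STAT3 knockout TH17 libraries 192, 225 and 197 TPM. In the order of mean levels, DMSO TH17 was lowest, then DMSO Treg, and the 3 remaining groups held mean levels of 204 ± 8.37 TPM in Srci1 TH17, 205 ± 17.6 TPM in the STAT3 knockout and 268 ± 11.03 TPM in Srci1 Treg. The Srci1 TH17 and knockout libraries overlapped in their ranges. Over all 15 libraries the tested genes with the highest Pearson correlation with Foxp3 were Mgat5 (r = 0.974), Fam83d (r = 0.973) and Kcnk6 (r = 0.969), given as a description, since the libraries share groups. Kcnk6, a potassium channel gene, was higher in Srci1 TH17 than in DMSO Treg cultures (8.66 ± 0.363 TPM against 4.24 ± 0.49 TPM, limma adjusted p = 0.000203). For the glycosyltransferase gene Mgat5 and for Fam83d the test was not passed, with 95% intervals of the difference of -0.06 to 0.52 and -0.03 to 0.39.

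The Treg program as a whole did not follow Foxp3. Of its 22 tested genes, 8 were higher in Srci1 TH17 cultures, 10 were lower and 4 were not called. Over all tested genes 21.4% were higher and 15.7% lower, so both shares of the list were larger. The list median was -0.05, beside 0.04 for all tested genes. Itgb8, an integrin chain that activates TGFβ, was the member too low to be tested, and 1 further listed gene was not analysed here. The mean log2(TPM + 1) level over the 23 matched genes was 5.14 in Srci1 TH17, 5.54 in DMSO Treg, 4.69 in DMSO TH17, 5.21 in Srci1 Treg and 5.44 in the STAT3 knockout.

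The higher members included the IL-2 receptor and the costimulatory receptor ICOS. Il2ra, which encodes CD25 (chr2:11642807-11693193, plus strand), held 1288, 1155 and 1179.9 TPM in Srci1 TH17 libraries and 728, 719.9 and 732 TPM in DMSO Treg libraries. The groups did not overlap, and the difference was 0.73 ± 0.10 (limma adjusted p = 5.84e-05). DMSO TH17 cultures held 692 ± 109 TPM, close to the Treg level, in a medium for which the protocol lists no IL-2. Icos was at 281 ± 2.84 TPM against 113 ± 9.23 TPM, 2.49-fold higher (limma adjusted p = 1.16e-05). Lrrc32, which encodes the latent TGFβ receptor GARP, was at 133 ± 6.4 TPM against 97.03 ± 0.86 TPM (limma adjusted p = 0.00181).

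Itgae, the αE integrin chain CD103 that binds E-cadherin on epithelium (chr11:73090583-73147446, plus strand), showed the largest difference among the higher members. Its Srci1 TH17 libraries held 8.85, 7.34 and 7.99 TPM, its DMSO Treg libraries 0.28, 0.14 and 0.48 TPM and its DMSO TH17 libraries 1.22, 1.19 and 0.77 TPM. The difference was 2.81 ± 0.14 (limma adjusted p = 1.45e-09). The STAT3 knockout TH17 cultures stood far above every other group at 124 ± 13.1 TPM. The gene of the suppressive cytokine IL-10 held 2.02, 2.87 and 2.81 TPM in Srci1 TH17 and 0.5, 0.22 and 0 TPM in DMSO Treg libraries (limma adjusted p = 2.15e-06), with 5.11 ± 0.363 TPM in DMSO TH17 and 0.697 ± 0.0814 TPM in STAT3 knockout TH17 cultures, and was listed at 0 in all 3 Srci1 Treg libraries. Itgae and Il10 met the filter through the Srci1 TH17 libraries alone. Nt5e, the ecto-enzyme CD73 that makes adenosine, was at 46.8 ± 6.13 TPM against 32.2 ± 1.28 TPM (limma adjusted p = 0.0131). Its call was lost without Srci1 TH17 replicate 1 (limma adjusted p = 0.0618). The receptor gene Gpr83 was at 25.3 ± 0.87 TPM against 19.9 ± 0.722 TPM, and its call (limma adjusted p = 0.0482) was lost when any 1 of the 6 libraries was left out, with adjusted p from 0.0747 to 0.122.

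The lower members were led by receptors of activated Treg cells. Tigit, an inhibitory receptor that binds CD155 (chr16:43648867-43664146, minus strand), held 9.12, 8.56 and 8.12 TPM in Srci1 TH17 libraries against 97.1, 109 and 99.3 TPM in DMSO Treg libraries, 11.8-fold lower (difference -3.42 ± 0.09, limma adjusted p = 3.04e-12). Its Srci1 TH17 level was near that of DMSO TH17 cultures, 7.67 ± 0.235 TPM, and Srci1 Treg cultures held 11.96 ± 1.49 TPM. The TNF receptor family genes Tnfrsf9 (4-1BB), Tnfrsf18 (GITR) and Tnfrsf4 (OX40) were lower together. Tnfrsf9 held 279, 264 and 259.7 TPM against 1148, 1128 and 1167 TPM, 4.29-fold lower. Tnfrsf18 held 223, 230.2 and 231 TPM against 653, 662 and 669 TPM, and Tnfrsf4 held 498, 505 and 509 TPM against 1103, 1085 and 1153 TPM. None of the 3 genes had overlapping groups (limma adjusted p = 3.4e-11, 6.77e-11 and 3.22e-09).

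Izumo1r, the folate receptor FR4 of Treg and anergic T cells, was at 101 ± 8.11 TPM in Srci1 TH17 and 333 ± 1.7 TPM in DMSO Treg cultures, 3.3-fold lower (limma adjusted p = 3.12e-10). Lag3, an inhibitory receptor for MHC class II, was at 12.9 ± 0.51 TPM and 56.1 ± 5.17 TPM (limma adjusted p = 4.41e-10). Penk, which encodes the enkephalin precursor, was at 0.903 ± 0.248 TPM and 12.7 ± 1.63 TPM (limma adjusted p = 2.85e-09). Lower levels were also called for Entpd1, the ecto-enzyme CD39 (1.75 ± 0.0907 TPM against 5.48 ± 0.791 TPM), and for the repressor gene Prdm1, which encodes BLIMP-1 (0.71 ± 0.372 TPM against 2.51 ± 0.391 TPM, limma adjusted p = 1.34e-05 and 8.97e-05). Penk and Prdm1 had Srci1 TH17 means under 1 TPM, so their entry into the test rested mainly on the Treg libraries. The actin-capping gene Capg was at 641 ± 30.2 TPM and 715 ± 16.2 TPM (limma adjusted p = 0.0461). Its call was lost when any 1 library other than Srci1 TH17 replicate 2 was left out, with adjusted p from 0.07 to 0.149.

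Ctla4, Ikzf2, Nrp1 and Ebi3 were not called. Ctla4 held 434, 363 and 372 TPM in Srci1 TH17 libraries and 321, 325 and 327 TPM in DMSO Treg libraries, and the groups did not overlap (difference 0.26, 95% interval 0.04 to 0.48, limma adjusted p = 0.0576). The test was passed for it under 4 of the alternative settings given in the closing section. Ikzf2, which encodes the thymic Treg factor Helios, was near the detection filter in both groups, at 1.5, 2.12 and 1.32 TPM and 0.6, 2.09 and 1.56 TPM, with overlap (95% interval -0.33 to 0.67). Nrp1, the semaphorin receptor neuropilin-1, was at 24.7 ± 0.202 TPM and 29.3 ± 0.587 TPM (95% interval -0.61 to 0.13), and Ebi3, a subunit of IL-27 and IL-35, was at 14.9 ± 0.376 TPM and 14.3 ± 1.52 TPM (95% interval -0.25 to 0.38).

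**Figure D2:**
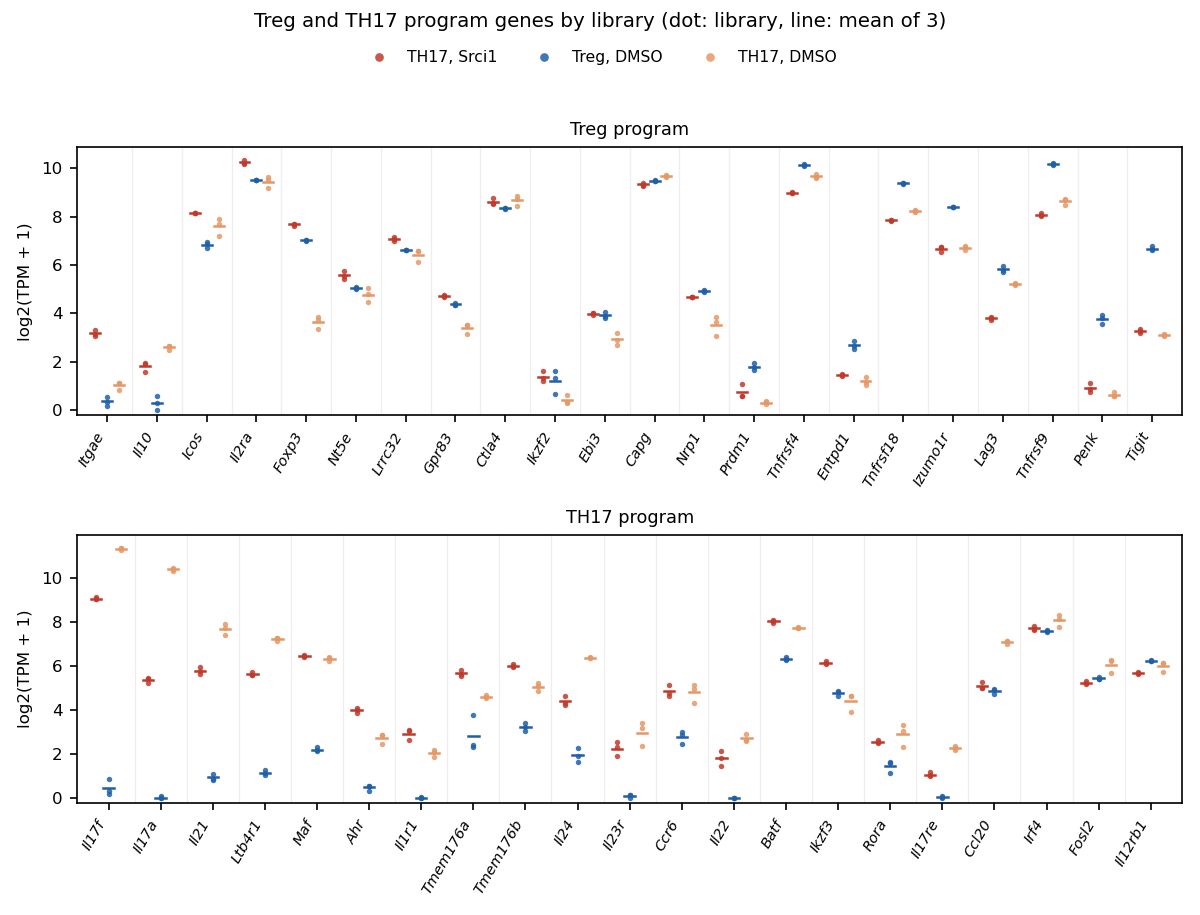
Level of the reported Treg program genes (top) and TH17 program genes (bottom), as log2(TPM + 1), in the Srci1 TH17, DMSO Treg and DMSO TH17 libraries, ordered by the difference between the first 2 groups. Each dot is a library and each line the mean of 3. Foxp3 and Il2ra are higher in Srci1 TH17 than in Treg libraries, Tigit and Tnfrsf9 are lower, and the leading TH17 cytokine genes are near 0 in Treg libraries.

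The TH17 program separated the cultures far more than the Treg program. Of 22 tested genes, 18 were higher in Srci1 TH17 cultures, 1 was lower and 3 were not called, with a list median of 2.21. The shares over all tested genes were 21.4% higher and 15.7% lower. The 18 include members that entered the test through the Srci1 TH17 libraries alone. Summed over the list, Srci1 TH17 libraries held 1633 to 1713 TPM, DMSO Treg libraries 482 to 491 TPM and DMSO TH17 libraries 5278 to 5490.2 TPM.

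The signature cytokine genes were transcribed in Srci1 TH17 cultures and close to absent in Treg cultures. Il17f, which encodes IL-17F (chr1:20777146-20790617, minus strand), held 552, 518 and 524 TPM in Srci1 TH17 libraries and 0.25, 0.14 and 0.83 TPM in DMSO Treg libraries. The difference was 8.60 ± 0.14 (limma adjusted p = 1.81e-14), and DMSO TH17 libraries held 2646, 2429 and 2579 TPM. Il17a (chr1:20730905-20734496, plus strand) held 42.05, 36.5 and 42.5 TPM in Srci1 TH17 libraries, was listed at 0 in Treg replicates 1 and 3 and held 0.08 TPM in replicate 2. The difference was 5.33 ± 0.12 (limma adjusted p = 3.78e-13), and DMSO TH17 libraries held 1279.8, 1356 and 1378 TPM. In Srci1 TH17 cultures Il17f was thus the more abundant of the pair by mean TPM. Il21, a cytokine of TH17 and follicular helper cells, held 61.5, 48.7 and 53.1 TPM against 0.86, 1.16 and 0.8 TPM (limma adjusted p = 3.75e-12). Il22, which acts on epithelium, held 3.42, 2.53 and 1.76 TPM in Srci1 TH17 libraries and was listed at 0 in all 3 Treg libraries, and the test was passed (limma adjusted p = 5.33e-07). Il17f, Il17a and Il22 met the filter through the Srci1 TH17 libraries alone, so their entry depended on the group where they were high. Il24 was at 20.2 ± 3.2 TPM against 2.97 ± 0.896 TPM, 6.81-fold higher (limma adjusted p = 2.38e-07).

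Receptors for the polarizing cytokines followed the same direction. Il23r, the IL-23 receptor chain (chr6:67422932-67491855, minus strand), held 4.86, 2.75 and 3.99 TPM in Srci1 TH17 libraries and 0.1, 0.13 and 0 TPM in Treg libraries (limma adjusted p = 3.89e-06). Il1r1, the IL-1 receptor, held 7.68, 5.29 and 7.19 TPM and 0.02, 0.03 and 0.02 TPM, and these Srci1 TH17 levels lay above the mean of 3.19 ± 0.439 TPM in DMSO TH17 cultures. Il17re, a receptor chain for IL-17C, was at 1.12 ± 0.151 TPM against 0.0433 ± 0.0404 TPM (limma adjusted p = 0.000172). Il23r, Il1r1 and Il17re likewise met the filter through the Srci1 TH17 libraries alone. Il12rb1, shared by the IL-12 and IL-23 receptors, was the member that was lower, at 50.2 ± 1.77 TPM against 74.5 ± 1.22 TPM (1.48-fold, limma adjusted p = 0.000668).

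Transcription factor genes of the lineage were mostly higher too. Maf, a regulator of IL-21 and IL-10, held 86.3, 90.9 and 85 TPM against 3.37, 3.51 and 3.96 TPM (24.2-fold, limma adjusted p = 4.28e-13), with 79.5 ± 5.56 TPM in DMSO TH17 cultures. The aryl hydrocarbon receptor gene Ahr held 16.2, 13.6 and 14.99 TPM against 0.49, 0.28 and 0.47 TPM (36.1-fold, limma adjusted p = 4.6e-10). Ahr met the filter through the Srci1 TH17 libraries alone. Batf, a partner of IRF4 at TH17 genes, was at 262 ± 10.7 TPM against 79.2 ± 3.43 TPM, and Ikzf3, which encodes Aiolos, at 70.3 ± 2.75 TPM against 26.7 ± 2.24 TPM (limma adjusted p = 6.99e-11 and 6.21e-05). Rora, a nuclear receptor gene, was at 4.97 ± 0.244 TPM against 1.82 ± 0.501 TPM (limma adjusted p = 0.00185). Irf4 and Fosl2 were not called, with 95% intervals of -0.11 to 0.34 and -0.54 to 0.14.

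The remaining members were surface and secreted molecules. Ltb4r1, a receptor for leukotriene B4, held 47.4, 47.2 and 51.8 TPM against 1.25, 1.07 and 1.42 TPM (39.1-fold, limma adjusted p = 3.62e-12). The membrane protein genes Tmem176a and Tmem176b were at 50.2 ± 4.76 TPM and 63.6 ± 2.94 TPM in Srci1 TH17 cultures, against 7.05 ± 4.91 TPM and 8.46 ± 1.19 TPM in Treg cultures (limma adjusted p = 1.61e-06 and 1.11e-10). For Tmem176a, Treg replicate 1 stood apart at 12.7 TPM, where the other two libraries held 4.42 and 4.02 TPM. Ccr6, the receptor for CCL20, was at 28.2 ± 5.37 TPM against 6.01 ± 1.29 TPM (limma adjusted p = 3.7e-06). Its ligand gene Ccl20 was not called (37.3, 31.6 and 30.6 TPM against 30.3, 29.5 and 25.9 TPM, limma adjusted p = 0.0685), and among the 17 alternatives it passed the test only without Srci1 TH17 replicate 3 (limma adjusted p = 0.0482).

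Genes of the STAT3 pathway were mostly higher in Srci1 TH17 cultures. In the list of STAT3 pathway and target genes, 11 of 15 tested members were higher, 1 was lower and 3 were not called (median 0.61). Among all tested genes 21.4% were higher and 15.7% lower. Socs3, a feedback inhibitor induced by STAT3 (chr11:117966079-117970047, minus strand), held 151, 157 and 157 TPM in Srci1 TH17 libraries and 29.6, 27.4 and 30.2 TPM in DMSO Treg libraries, 5.32-fold higher (limma adjusted p = 5.82e-12). It held 82.5 ± 5.27 TPM in DMSO TH17 and 10.2 ± 0.548 TPM in STAT3 knockout TH17 cultures, so that the Srci1 TH17 libraries had the highest mean of the 5 groups. The kinase gene Pim2 was at 458 ± 6.31 TPM against 159 ± 7.88 TPM, and the NF-κB cofactor gene Bcl3 at 147 ± 7.3 TPM against 61.4 ± 4.08 TPM (limma adjusted p = 9.02e-11 and 3.14e-08). Il6ra, the IL-6 receptor, was at 44.4 ± 1.33 TPM against 17.1 ± 1.46 TPM, and Il21r, the IL-21 receptor, at 159 ± 1.1 TPM against 105 ± 1.92 TPM (limma adjusted p = 5.4e-05 and 1.73e-05). The member called lower was Tyk2, a Janus kinase gene named after its values were seen (difference -0.39, limma adjusted p = 0.0125). Stat3 itself held 158, 152 and 161 TPM and 129.6, 134 and 139.9 TPM without overlap, but was not called (95% interval 0.01 to 0.44, limma adjusted p = 0.0951). As a check of the labels, it held 33.5, 38.4 and 30.7 TPM in the STAT3 knockout libraries and 129.7, 133 and 99.8 TPM in DMSO TH17 libraries.

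The IL-2 and STAT5 response had members called in both directions. Of 16 tested genes, 5 were higher, 3 were lower and 8 were not called (median 0.09, beside 0.04 for all tested genes). Over all tested genes 21.4% were higher and 15.7% lower, so the lower share of the list is near that of all genes. After median-of-ratios scaling 5 were lower. Socs2, a cytokine feedback inhibitor, was at 338 ± 15.3 TPM against 193 ± 12.1 TPM, and Osm, which encodes oncostatin M, at 48.9 ± 1.15 TPM against 22.7 ± 0.674 TPM (limma adjusted p = 1.08e-05 and 3.09e-08). Lower levels were called for the cyclin gene Ccnd2 (222 ± 12.1 TPM against 442 ± 1.96 TPM), the survival gene Bcl2l1, which encodes BCL-XL (62.3 ± 4.56 TPM against 117 ± 4.04 TPM), and Gzmb (limma adjusted p = 6.91e-07, 1.21e-07 and 2.56e-15).

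Genes of TGFβ signalling were more often higher than lower in Srci1 TH17 cultures. Of 17 tested genes, 9 were higher and 2 were lower (median 0.51), beside 21.4% and 15.7% over all tested genes. Tgfbr2, a receptor chain, held 52.5, 48.1 and 52.4 TPM against 18.1, 17.3 and 19.3 TPM (2.8-fold, limma adjusted p = 3.85e-07). The feedback inhibitor genes Smad7 (18.1 ± 1.1 TPM against 7.18 ± 0.871 TPM), Ldlrad4 (8.64 ± 0.809 TPM against 2.03 ± 0.115 TPM) and Ski (54.9 ± 1.13 TPM against 32.2 ± 0.404 TPM) were higher too (limma adjusted p = 1.8e-05, 2.49e-07 and 6.29e-06). The lower members, named after their values were seen, were Tgfb1, a TGFβ ligand gene (difference -0.45), and Ltbp3, which binds latent TGFβ (difference -0.79). The count of lower members was 1 without either of Srci1 TH17 replicates 1 and 2 or either of Treg replicates 2 and 3.

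The DMSO Treg cultures carried a TH1 and cytotoxic program that was low in Srci1 TH17 cultures. Of 18 tested genes, 15 were lower in Srci1 TH17 cultures and 2 were higher, with a list median of -2.92. The shares over all tested genes were 15.7% lower and 21.4% higher. Summed TPM over the list was 231 to 248 TPM in Srci1 TH17 and 2356 to 2387 TPM in DMSO Treg libraries. DMSO TH17 libraries held 172 to 202 TPM and Srci1 Treg libraries 943 to 1018 TPM. STAT3 knockout TH17 libraries held 2611 to 2769 TPM. The knockout sums thus stood above the DMSO Treg sums, but a sum is carried by its most abundant genes. The mean log2(TPM + 1) level over the 19 matched genes was highest in DMSO Treg, at 5.23. It was 4.36 in the knockout, 4.32 in Srci1 Treg, 2.8 in Srci1 TH17 and 2.51 in DMSO TH17 cultures. Gzmb, which encodes the protease granzyme B (chr14:56258838-56262260, minus strand), held 45.6, 41.3 and 44.2 TPM against 1244, 1290.0 and 1302 TPM. It was 29.3-fold lower (difference -4.84 ± 0.07, limma adjusted p = 2.56e-15), and it held 6.84 ± 0.293 TPM in DMSO TH17, 477 ± 18.9 TPM in Srci1 Treg and 6.85 ± 0.485 TPM in STAT3 knockout TH17 cultures. Tbx21, the gene of T-bet, the master factor of TH1 cells (chr11:97098071-97115331, minus strand), held 0.49, 0.58 and 0.74 TPM against 45.6, 46.4 and 43.1 TPM, 74.6-fold lower (limma adjusted p = 1.95e-12). Nkg7, a granule membrane gene of cytotoxic cells, held 4.06, 4.51 and 1.99 TPM against 169.6, 179 and 188 TPM (50.8-fold lower, limma adjusted p = 1.62e-11). For all 3 genes the groups stood apart without overlap, but Tbx21 met the filter through the Treg libraries alone, where it was high.

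The chemokine genes Ccl3 and Ccl4 followed. Ccl3 held 6.22, 6.21 and 7.33 TPM against 244, 236 and 236 TPM, and Ccl4 held 11.6, 9.78 and 10.1 TPM against 267, 236 and 237 TPM (limma adjusted p = 3.75e-12 and 4.18e-13). Prf1, the pore-forming protein of cytotoxic granules, was at 3.29 ± 0.564 TPM against 15.8 ± 1.23 TPM (limma adjusted p = 6.85e-08). The higher members, named after their values were seen, were Runx3, a transcription factor gene (difference 0.95), and Il18r1, an IL-18 receptor chain (difference 0.75), and Stat4 was not called (95% interval -0.46 to 0.06).

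Immediate targets of the T cell receptor were another group that was lower in Srci1 TH17 cultures. In the list of TCR-induced genes, 16 of 22 tested members were lower, 2 were higher and 4 were not called (median -1.49). Among all tested genes 15.7% were lower and 21.4% higher. Tnfrsf4 and Tnfrsf9 are in this list and in the Treg program. Egr3, a zinc-finger factor induced through calcium and NFAT (chr14:70077203-70082614, plus strand), held 5.21, 5.99 and 5.67 TPM in Srci1 TH17 libraries, 76.8, 72.5 and 76.03 TPM in DMSO Treg libraries and 19.8, 22.2 and 17.4 TPM in DMSO TH17 libraries. It was 13.4-fold lower than in Treg libraries (limma adjusted p = 3.75e-12). The nuclear receptor genes Nr4a1, which encodes Nur77, and Nr4a3 held 71.8, 78.1 and 72.9 TPM against 379, 361 and 378 TPM, and 14.3, 10.6 and 16.2 TPM against 132, 132 and 126 TPM (limma adjusted p = 2.33e-12 and 1.11e-10). Spry1, an inhibitor of growth factor and TCR signalling, was at 9.47 ± 0.58 TPM against 45.3 ± 1.02 TPM (limma adjusted p = 1.69e-10). Among the exceptions, named after their values were seen, the early activation genes Ier3 (difference 0.88, limma adjusted p = 0.000111) and Cd69 (difference 0.35, limma adjusted p = 0.0213) were higher. Only 1 of these was called without Srci1 TH17 replicate 1, Srci1 TH17 replicate 3 or Treg replicate 2. Il2, Irf4, Rcan1 and Tnf were not called, with differences of 0.28, 0.12, 0.01 and 0.09.

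Among the Src family itself, of 12 tested kinases and regulators, 3 were higher and 5 were lower (median 0.01). The higher share is near the 21.4% over all tested genes, of which 15.7% were lower. With array weights 5 members of the list were higher. Lck, the kinase that starts TCR signalling, held 393, 413 and 406 TPM against 446, 426 and 437 TPM and was not called (95% interval -0.21 to -0.01), although the groups did not overlap. Fyn held 101, 98.2 and 104 TPM against 144, 149.7 and 139 TPM and was lower (limma adjusted p = 2.61e-05). Src held low levels of 2.02, 2.56 and 2.54 TPM against 0.84, 1.36 and 1.34 TPM and was higher (limma adjusted p = 0.00691). Lime1, an adaptor that binds LCK and CSK, was at 117 ± 4.2 TPM against 53.3 ± 2.89 TPM, while the phosphatase genes Ptpn22 (30.1 ± 2.79 TPM against 76.8 ± 4.03 TPM) and Ptpn6 (134 ± 5.17 TPM against 203 ± 5.04 TPM) and the Src-like adaptor gene Sla (50.5 ± 4.67 TPM against 165 ± 5.48 TPM) were lower (limma adjusted p = 1.62e-08, 4.91e-08, 3.72e-06 and 2.64e-09).

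Checkpoint receptors were mostly higher on the Treg side. Among 16 tested checkpoint and co-stimulatory receptors, 10 were lower in Srci1 TH17 cultures, 2 were higher and 4 were not called (median -1.04). With only the 6 libraries compared in the model, and also with array weights, 5 were higher. The main fit called 15.7% of all tested genes lower and 21.4% higher. Ctla4, Icos, Lag3, Tigit, Tnfrsf4, Tnfrsf9 and Tnfrsf18 are also Treg program genes. Pdcd1, which encodes PD-1 (chr1:94038305-94052553, minus strand), held 9.92, 10.2 and 9.29 TPM against 77.4, 80.8 and 79.1 TPM, 8.06-fold lower (limma adjusted p = 4.04e-12), with 25.03 ± 2.72 TPM in DMSO TH17 and 118 ± 1.16 TPM in STAT3 knockout TH17 cultures. The higher members were Icos and Tnfrsf1b, a receptor gene for TNF (difference 1.02), the latter named after its values were seen.

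Transcripts of the type I interferon response were lower in Srci1 TH17 cultures for all but a pair of the tested list members. Of 14 tested genes, 12 were lower and 1 was higher (median -1.57), beside 15.7% and 21.4% over all tested genes. Summed over the list, libraries held 1984 to 2078 TPM in Srci1 TH17, 3926 to 4032 TPM in DMSO Treg and 2069.9 to 2164 TPM in DMSO TH17 cultures. Srci1 Treg libraries held 2195 to 2243 TPM and STAT3 knockout TH17 libraries 2227 to 2381 TPM. The DMSO Treg sums thus stood above those of every other group. The mean log2(TPM + 1) level over the 18 matched genes was also highest in DMSO Treg, at 4.91. It was 4.37 in the knockout, 4.3 in Srci1 Treg, 3.59 in Srci1 TH17 and 3.38 in DMSO TH17 cultures. By this level the TH17 cultures with Srci1 and with DMSO were the low groups, a difference that the sums do not show. Iigp1, an interferon-induced GTPase gene, held 1.26, 1.64 and 1.24 TPM against 61.7, 60.5 and 66.6 TPM (45.6-fold lower, limma adjusted p = 4.9e-12). Isg20, an exonuclease gene, was at 8.92 ± 1.34 TPM against 69.7 ± 4.04 TPM, Zbp1, a nucleic acid sensor gene, at 27.6 ± 2.62 TPM against 97.4 ± 9.09 TPM, and Ifi27l2a at 550.2 ± 28.1 TPM against 1864 ± 69.6 TPM (limma adjusted p = 4.54e-09, 3.32e-09 and 2.02e-09). The exceptions, named after their values were seen, were Ly6a, a surface antigen gene that was higher (difference 0.46), and Stat2, which was not called (95% interval -0.70 to 0.05).

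Interferon genes are known to carry a short element, the ISRE, bound by a complex that holds STAT2 and IRF9. The letters GAAANNGAAA were searched on both strands, with overlapping matches counted, from 250 bases before to 50 bases after each start in RefSeq's GRCm38.p6 promoters. Promoters were found for 7 of the 14 tested interferon genes, in 10 windows, of which 3 (30.0%) held a match, against 3.19% of the windows of tested genes and 3.44% of all windows. The matches were in Bst2, Gbp2 and Stat2. Bst2, which encodes the virus-tethering protein tetherin, and Gbp2, a guanylate-binding protein gene, are shown as members that were lower and carry a match, and were chosen after their values were seen. Capitals mark the matched letters or their reverse complement.
Gbp2 (GRCm38.p6 chr3:142620564-142620653, plus strand): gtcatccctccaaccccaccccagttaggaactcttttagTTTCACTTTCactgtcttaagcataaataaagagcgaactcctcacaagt
Bst2 (GRCm38.p6 chr8:71537553-71537642, minus strand): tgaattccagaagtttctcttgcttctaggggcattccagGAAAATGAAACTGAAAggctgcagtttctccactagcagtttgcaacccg
Gbp2 was at 492 ± 22.3 TPM against 707 ± 16.2 TPM (limma adjusted p = 2.11e-05), and Bst2 at 103 ± 9.62 TPM against 167 ± 3.55 TPM (limma adjusted p = 0.00328). In Bst2 the capitals hold 2 overlapping matches. A match describes the letters of the window and is not a measured binding site.

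**Figure D3:**
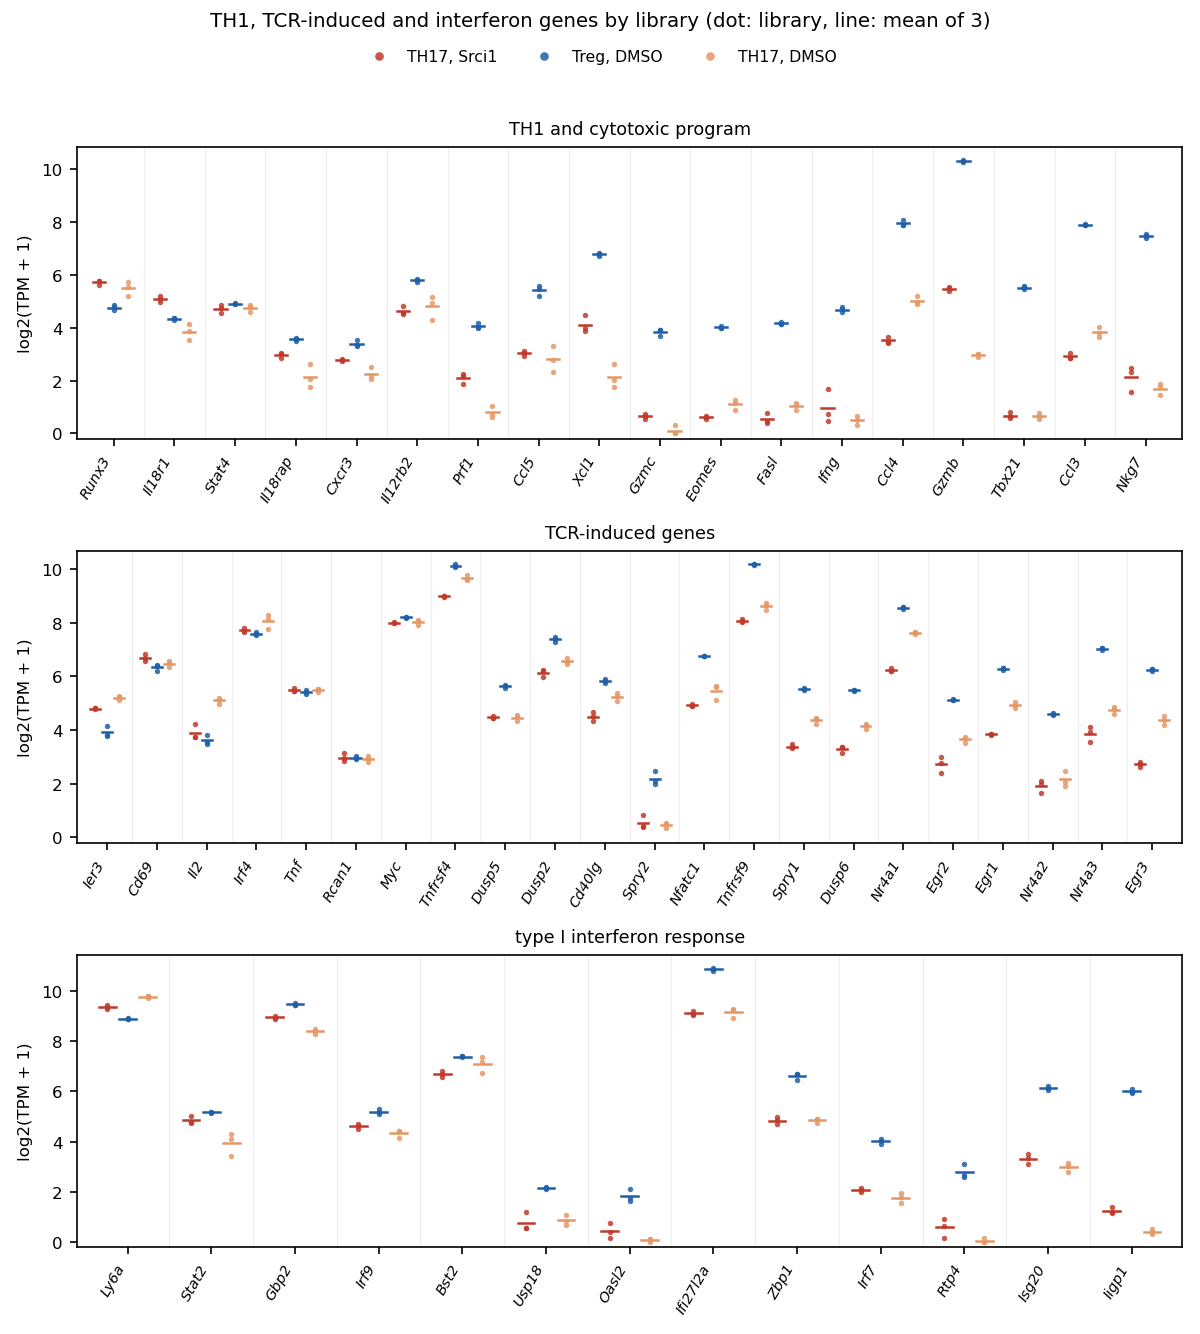
Levels as log2(TPM + 1) of the reported TH1 and cytotoxic, TCR-induced and type I interferon genes in the Srci1 TH17, DMSO Treg and DMSO TH17 libraries, ordered within each panel by the difference between Srci1 TH17 and DMSO Treg. Each dot is a library and each line the mean of 3. The DMSO Treg libraries lie highest for most genes of the 3 lists, and Tbx21, Ccl3 and Nkg7 show the widest gaps in the top panel.

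Homing and chemokine receptor genes separated the cultures in both directions. Of 13 tested chemokine and related receptors, 10 were higher and 3 were lower in Srci1 TH17 cultures (median 1.33). Among all tested genes 21.4% were higher and 15.7% lower. Gpr15, which guides T cells to the colon (chr16:58717433-58719070, minus strand), held 101, 93.04 and 102 TPM in Srci1 TH17 libraries and 0.21, 0.11 and 0.06 TPM in DMSO Treg libraries (difference 6.47 ± 0.12, limma adjusted p = 6.65e-14). DMSO TH17 cultures held 38.8 ± 2.27 TPM and Srci1 Treg cultures 0.173 ± 0.0751 TPM, so the Srci1 TH17 mean was the highest of the 5 groups. Gpr15 met the filter through the Srci1 TH17 libraries alone. Cxcr4, the receptor for CXCL12, was at 68.1 ± 7.05 TPM against 18.9 ± 1.9 TPM, and Ccr4, a receptor of skin-homing T cells, at 169 ± 7.99 TPM against 66.3 ± 0.329 TPM (limma adjusted p = 2.68e-08 and 1.99e-06). S1pr1, which lets T cells leave lymphoid tissue, was at 75.7 ± 5.83 TPM against 27.1 ± 0.803 TPM (limma adjusted p = 4.05e-09). Ccr7, which guides cells into lymph nodes, was the reverse at 445 ± 9.79 TPM against 720.3 ± 12.01 TPM (limma adjusted p = 1.43e-07). The other lower members, named after their values were seen, were Cxcr3 (difference -0.62) and Ccr8 (difference -0.27).

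In the list of naive, memory and homing genes, 10 of 16 tested members were higher and 5 were lower (median 0.46). The shares over all tested genes were 21.4% and 15.7%. Satb1, a chromatin organizer of T cells (chr17:51736187-51833290, minus strand), held 486, 424 and 457 TPM against 54.7, 52.7 and 49.97 TPM, 8.68-fold higher (limma adjusted p = 1.62e-11). It held 391 ± 62.01 TPM in DMSO TH17 and 27.3 ± 2.11 TPM in STAT3 knockout TH17 cultures. Id2, an inhibitor of E proteins, was at 115 ± 8.01 TPM against 77.5 ± 2.33 TPM (limma adjusted p = 1.92e-06). The α4 integrin gene Itga4 was lower at 5.48 ± 0.715 TPM against 19.5 ± 0.473 TPM (limma adjusted p = 7.35e-06).

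Integrins were divided, with 5 of 11 tested chains higher and 5 lower, beside 21.4% and 15.7% over all tested genes. Itgb3, the β3 chain, was at 8.04 ± 0.528 TPM against 35.99 ± 0.539 TPM, and Itga3 at 19.2 ± 1.72 TPM against 50.3 ± 3.01 TPM (limma adjusted p = 3.27e-09 and 4.32e-06). Itgb5 was higher at 9.93 ± 0.285 TPM against 4.93 ± 0.501 TPM (limma adjusted p = 2.89e-05). Of 8 genes that handle extracellular adenosine, a pathway of Treg suppression, 2 were higher, near the 21.4% over all tested genes, and 3 were lower. Without Srci1 TH17 replicate 1 the count of higher members was 1. Besides Nt5e and Entpd1, the adenosine receptor genes Adora2a (21.2 ± 2.57 TPM against 36.95 ± 2.16 TPM) and Adora2b (3.12 ± 0.455 TPM against 7.21 ± 0.272 TPM) were lower, and Pnp, which breaks down inosine, was higher at 58.1 ± 3.14 TPM against 44.2 ± 1.11 TPM (limma adjusted p = 0.000727, 1.7e-05 and 0.00169).

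NF-κB genes split by member. Of 16 tested, 7 were higher and 6 lower (median -0.02), beside 21.4% and 15.7% over all tested genes. The subunit genes Rel (8.85 ± 0.622 TPM against 34.4 ± 0.527 TPM), Nfkb1 (211 ± 11.1 TPM against 402 ± 13.1 TPM) and Nfkb2 (137 ± 6.3 TPM against 208 ± 1.86 TPM) were lower (limma adjusted p = 1.05e-07, 7.13e-08 and 6.12e-07). REL, or c-Rel, is known as a factor for Foxp3 induction. The survival gene Bcl2a1b was at 19.6 ± 3.24 TPM against 154 ± 2.15 TPM (limma adjusted p = 2.36e-11), and its close copies in the genome make the split of reads between them uncertain.

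Genes of other helper lineages showed no shared direction. Of 11 tested TH2 and TH9 genes, 3 were higher and 4 were lower, beside 21.4% and 15.7% over all tested genes. Il9 held 52.3, 41.6 and 40.3 TPM in Srci1 TH17 libraries. It held 1.32 TPM in Treg replicate 1 and was listed at 0 in the other two Treg libraries (limma adjusted p = 9.57e-09). Il9 was at 6.6 ± 2.17 TPM in DMSO TH17 cultures. Its entry into the test rested mainly on the Srci1 TH17 libraries, as did that of Il1rl1 and Tox2 below. Csf2, which encodes GM-CSF, was lower at 13.6 ± 1.35 TPM against 26.3 ± 1.85 TPM, and Il13 was lower at 2.9 ± 0.254 TPM against 5.25 ± 1.05 TPM (limma adjusted p = 1.44e-05 and 0.00562). Il1rl1, the IL-33 receptor, was higher at 2.57 ± 0.429 TPM against 0.35 ± 0.211 TPM (limma adjusted p = 3.93e-06). Among 8 tested follicular helper genes, 3 were higher, among them Tox2 (3.4 ± 0.818 TPM against 0.213 ± 0.13 TPM) and Bcl6 (4.98 ± 0.0954 TPM against 3.35 ± 0.503 TPM), and 4 were lower, among them Tox (5.98 ± 0.47 TPM against 22.02 ± 0.827 TPM) and Cd200 (144 ± 9.27 TPM against 420.3 ± 41.7 TPM) (limma adjusted p = 1.22e-06, 0.00728, 3.76e-08 and 3e-06).

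Genes of cholesterol synthesis were mostly higher in Srci1 TH17 cultures. Of 23 tested genes, 18 were higher and none was lower (median 0.67), beside 21.4% and 15.7% over all tested genes. Summed TPM was 2407 to 2529.6 TPM in Srci1 TH17, 1627 to 1641 TPM in DMSO Treg and 1087 to 1245 TPM in DMSO TH17 libraries. Srci1 Treg libraries held 2119.6 to 2251.5 TPM, also above DMSO Treg, and STAT3 knockout TH17 libraries 861.3 to 926 TPM. Mvd, which makes isopentenyl diphosphate (chr8:122433601-122443422, minus strand), held 119.5, 128 and 132 TPM against 42.5, 42.2 and 41.2 TPM, 3.01-fold higher (limma adjusted p = 5.35e-11). The mevalonate kinase gene Mvk held 39.99, 46.8 and 43.3 TPM against 21, 19.7 and 19.3 TPM, and Nsdhl, a later sterol enzyme, 56.8, 55.5 and 51.8 TPM against 30.99, 30.03 and 31.4 TPM (limma adjusted p = 6.56e-07 and 7.07e-07). Acat2 was at 131 ± 5.54 TPM against 46.2 ± 1.83 TPM, and Msmo1 at 87.8 ± 6.48 TPM against 53.3 ± 1.2 TPM (limma adjusted p = 3.08e-09 and 1.39e-06). In Srci1 Treg cultures Mvd held 78.3 ± 0.673 TPM, Mvk 35.6 ± 0.775 TPM and Nsdhl 41.1 ± 1.92 TPM. The members not called included, named after their values were seen, the master factor gene Srebf2 (difference 0.04), Pmvk (0.08), Idi1 (0.24) and Stard4 (0.21).

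Sterol gene promoters are known to be driven by SREBP together with NF-Y, which binds the CCAAT box. RefSeq promoters were found for 17 of the 23 tested cholesterol genes, in 20 windows, and CCAAT on either strand was present in 16 windows (80.0%), against 38.3% of the windows of tested genes and 37.4% of all windows. The letters TCACNCCAC of a sterol regulatory element were in 1 window (5.0%), that of Hmgcs1, against 1.11% and 1.24%. Mvd, Mvk and Nsdhl are shown as members with small adjusted p, and Hmgcs1, the synthase at the head of the pathway, as the member with the sterol element, chosen after its values were seen. Capitals mark CCAAT or its reverse complement in the first 3, and the sterol element in Hmgcs1.
Mvd (GRCm38.p6 chr8:122443438-122443522, minus strand): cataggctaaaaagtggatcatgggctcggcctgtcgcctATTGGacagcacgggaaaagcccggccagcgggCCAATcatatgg
Mvk (GRCm38.p6 chr5:114444056-114444140, plus strand): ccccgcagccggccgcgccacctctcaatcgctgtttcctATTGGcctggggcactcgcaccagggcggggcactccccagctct
Nsdhl (GRCm38.p6 chrX:72918372-72918456, plus strand): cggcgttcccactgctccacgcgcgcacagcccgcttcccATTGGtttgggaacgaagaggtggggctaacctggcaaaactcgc
Hmgcs1 (GRCm38.p6 chr13:119690174-119690262, plus strand): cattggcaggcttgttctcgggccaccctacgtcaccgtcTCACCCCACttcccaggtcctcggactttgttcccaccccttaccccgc
Hmgcs1 was at 161 ± 21.7 TPM against 129 ± 3.53 TPM (limma adjusted p = 0.0242), a smaller difference than those of the other three.

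Of 14 tested fatty acid synthesis genes, 5 were higher and 2 were lower, beside 21.4% and 15.7% over all tested genes, so that the lower share is near that of all genes. Fasn, the fatty acid synthase, was at 262 ± 13.2 TPM against 149 ± 0.658 TPM, and Acly, which supplies its acetyl-CoA, at 213 ± 8.61 TPM against 124 ± 2.41 TPM (limma adjusted p = 4.6e-07 and 0.000107). The desaturase gene Fads2 was at 75.2 ± 2.21 TPM against 44.7 ± 1.49 TPM, and the elongase gene Elovl1 at 144 ± 6.55 TPM against 101 ± 2.15 TPM (limma adjusted p = 6.47e-06 and 4.95e-06). Acsl5, an acyl-CoA synthetase gene, was lower at 72.1 ± 3.49 TPM against 97.2 ± 1.18 TPM (limma adjusted p = 0.00069). The count of lower members was 1 without Srci1 TH17 replicate 2.

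Amino acid supply ran the other way. Of 19 tested ATF4 and serine synthesis genes, 10 were lower in Srci1 TH17 cultures and none was higher (median -0.26). Among all tested genes 15.7% were lower and 21.4% higher. Phgdh, the first enzyme of serine synthesis (chr3:98313170-98339990, minus strand), held 184, 201 and 193 TPM against 426, 463 and 422 TPM, 2.27-fold lower (limma adjusted p = 1.36e-09). Psat1, the next enzyme, was at 118 ± 4.19 TPM against 172 ± 4.27 TPM, and the mitochondrial folate enzyme gene Mthfd2 at 73.1 ± 0.303 TPM against 119 ± 4.08 TPM (limma adjusted p = 2.96e-05 and 1.06e-06). The amino acid transporter genes Slc1a4 (3.3 ± 0.665 TPM against 9.98 ± 0.562 TPM) and Slc7a5 (91.2 ± 1.91 TPM against 131 ± 1 TPM) were lower too (limma adjusted p = 2.82e-06 and 0.000186). Without Srci1 TH17 replicate 1 or 2, 1 member of this list was called higher.

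Glycolysis and hypoxia genes were lower only in part. Of 24 tested genes, 10 were lower and 4 were higher (median -0.10), beside 15.7% and 21.4% over all tested genes. For 16 of them the 95% interval lay within 1.5-fold. The count of higher members was 0 after median-of-ratios scaling, and 2 without Srci1 TH17 replicate 2 or Treg replicate 1. Summed TPM was 21710.3 to 22649.7 TPM in Srci1 TH17 and 21669.5 to 22429.5 TPM in DMSO Treg libraries, ranges that overlap. The glucose transporter gene Slc2a3 held 49.3, 43.7 and 48.03 TPM against 115, 117 and 118 TPM, 2.48-fold lower (limma adjusted p = 7.49e-07), and the phosphofructokinase gene Pfkp was at 161 ± 8.87 TPM against 303 ± 8.23 TPM (limma adjusted p = 5.43e-06). The hypoxia-induced genes Pdk1 (48.9 ± 4.59 TPM against 77.3 ± 0.901 TPM), Bnip3 (108 ± 6.43 TPM against 156 ± 7.2 TPM) and Ankrd37 (16.2 ± 1.54 TPM against 28.9 ± 3.06 TPM) were lower (limma adjusted p = 5.05e-05, 0.000117 and 0.000392).

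Respiratory chain and cell cycle genes were close between the cultures. Of 20 nuclear oxidative phosphorylation genes, 19 had a 95% interval within 1.5-fold, and Ndufa9, a complex I subunit gene, was the member called (difference -0.24, limma adjusted p = 0.00871). All 20 DNA replication genes and all 20 mitosis genes had intervals within 2-fold. Replication genes were called higher in 2 cases and lower in 3, and mitosis genes in 6 and 3. Beside 21.4% higher and 15.7% lower over all tested genes, the lower share of both lists is near that of all genes. The higher share of the replication list lies below it. The higher counts were 1 for replication without any 1 of the 6 libraries and 3 for mitosis without Srci1 TH17 replicate 1, and the lower count for mitosis was 1 without Srci1 TH17 replicate 2 or 3 or Treg replicate 1 or 3. Rrm2, a ribonucleotide reductase subunit gene, was at 245 ± 9.64 TPM against 171 ± 2.77 TPM and Birc5, which encodes survivin, at 249 ± 4.03 TPM against 178 ± 4.26 TPM, while Cdk1, the mitotic kinase, was at 229 ± 22.6 TPM against 316 ± 3.45 TPM (limma adjusted p = 5.42e-06, 5.15e-05 and 0.000213). In DMSO TH17 cultures these 3 genes held 93.9 ± 6.18 TPM, 110.2 ± 10.5 TPM and 148 ± 12.5 TPM. Of 13 mitochondrially encoded genes, 5 were higher, and mt-Nd2 had the smallest adjusted p (1939.6 ± 120.3 TPM against 1246 ± 43.8 TPM, limma adjusted p = 7.59e-05), beside the higher mitochondrial share of TPM given above. None was lower, but 1 was called lower without Srci1 TH17 replicate 2. Differences in the list ran from -3.10 for mt-Nd4l to 2.67 for mt-Co3, neither of them called and both named after their values were seen.

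Genes of the p53 response were higher with 1 exception, beside 21.4% higher over all tested genes. Of 11 tested genes, 10 were higher in Srci1 TH17 cultures (median 0.58), and Bbc3, named after its values were seen, was not called (95% interval -0.19 to 0.49). Bax, which permeabilizes mitochondria, held 205, 232 and 231 TPM against 146, 142 and 149 TPM (limma adjusted p = 1.51e-05). Pmaip1, which encodes NOXA, was at 21.5 ± 2.83 TPM against 13 ± 0.673 TPM, and the growth arrest gene Gadd45a at 10.6 ± 0.129 TPM against 4.15 ± 1.27 TPM (limma adjusted p = 0.000259 and 0.000366). Zmat3 and Phlda3 were at 15.2 ± 1.48 TPM and 21.4 ± 1.8 TPM against 9.16 ± 0.368 TPM and 13.9 ± 1.06 TPM (limma adjusted p = 0.00117 and 0.00217). Unfolded protein and heat shock genes had no shared direction, with 5 of 15 higher and 4 lower, and all 15 intervals within 2-fold. The shares over all tested genes were 21.4% and 15.7%. The count of higher members was 3 without Treg replicate 1 and 3 after median-of-ratios scaling. The chaperone genes Sdf2l1 (135 ± 8.55 TPM against 81.8 ± 5.26 TPM) and Hspa5, which encodes BiP (329.7 ± 26.2 TPM against 401 ± 20.3 TPM), went opposite ways (limma adjusted p = 1.26e-05 and 0.00698).

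**Figure D4:**
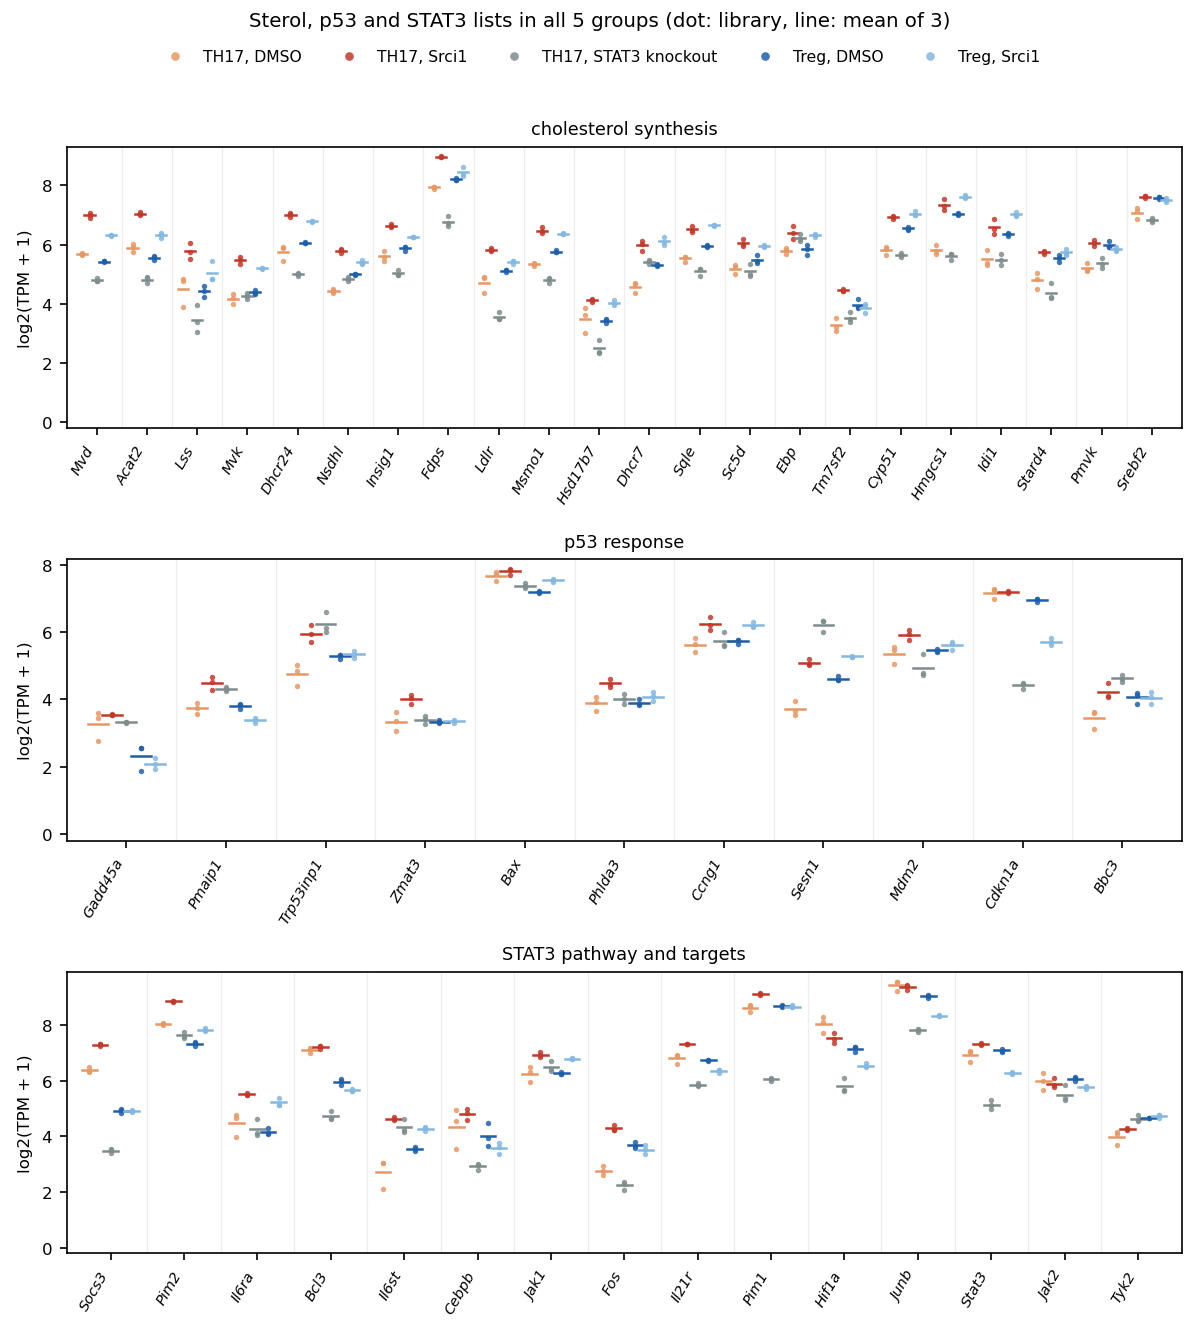
Levels as log2(TPM + 1) of the reported cholesterol synthesis, p53 response and STAT3 list genes in all 5 groups, ordered within each panel by the difference between Srci1 TH17 and DMSO Treg. Each dot is a library and each line the mean of 3. Mvd, Acat2 and Nsdhl are highest in the Srci1 TH17 libraries, and Socs3 is highest in Srci1 TH17 and lowest in STAT3 knockout TH17 libraries.

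Outside the lists, the largest differences were named by size among called genes of at least 5 TPM in 1 group. On the higher side stood Timp1, an inhibitor of matrix proteases (chrX:20870166-20874735, plus strand), with 135, 127 and 130.4 TPM against 0.83, 0.38 and 0.41 TPM (difference 6.43, limma adjusted p = 2.09e-11). Serpinb1a, a protease inhibitor gene, held 83.2, 81.2 and 79.5 TPM against 1.63, 2.13 and 0.76 TPM, and Pdpn, which encodes podoplanin, 17.97, 19.1 and 23.1 TPM against 0, 0.05 and 0.05 TPM (limma adjusted p = 7.63e-11 and 4.04e-12). The motor protein genes Myh11 and Myo1f were at 23.9 ± 3.1 TPM and 27.5 ± 0.706 TPM against 0.333 ± 0.0777 TPM and 0.76 ± 0.208 TPM, and Wdfy4, known for cross-presentation in dendritic cells, was at 22.9 ± 1.41 TPM against 0.427 ± 0.0764 TPM (limma adjusted p = 2.96e-11, 5.45e-11 and 1.07e-05). In DMSO TH17 cultures Timp1 held 432 ± 36.5 TPM, Serpinb1a 82.8 ± 11.98 TPM and Pdpn 19.9 ± 1.45 TPM. Timp1, Pdpn, Myh11 and Wdfy4 met the filter through the Srci1 TH17 libraries alone.

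On the lower side stood Crabp2, a retinoic acid carrier gene (chr3:87948666-87953376, plus strand), with 6.64, 6.27 and 5.38 TPM against 241, 238 and 253 TPM (difference -5.11, limma adjusted p = 4.66e-12). Lgals7, a galectin gene, held 1.64, 3.33 and 3.46 TPM against 128, 161 and 136 TPM, and Spp1, which encodes osteopontin, 1.12, 1.21 and 2.11 TPM against 64.2, 64.1 and 70.01 TPM (limma adjusted p = 2.01e-10 and 3.98e-11). Ccl1, the ligand of CCR8, held 1.67, 2.61 and 2.93 TPM against 52.2, 54.2 and 55.99 TPM, with 162 ± 12.9 TPM in Srci1 Treg and 0.203 ± 0.205 TPM in DMSO TH17 cultures (limma adjusted p = 3.11e-11). Ms4a4c was at 1.33 ± 0.729 TPM against 96.2 ± 8.71 TPM, and the interferon-induced GTPase gene Gbp6 at 0.827 ± 0.368 TPM against 41.1 ± 2.82 TPM (limma adjusted p = 4.6e-10 and 1.43e-10). The entry of Gbp6 into the test rested mainly on the Treg libraries. Eno3, the muscle enolase, was at 8.34 ± 0.279 TPM against 144 ± 7.3 TPM, and Igfbp7 at 5.99 ± 2.49 TPM against 97.8 ± 6.44 TPM (limma adjusted p = 7.21e-12 and 5.04e-10). The Ly6 family gave opposite results: Ly6g held 18.96, 18.4 and 19.1 TPM against 0.11, 0 and 0.12 TPM, and Ly6c2 0, 1.18 and 0.78 TPM against 76.6, 62.7 and 73.7 TPM (limma adjusted p = 3.75e-12 and 8.08e-10). Ly6g met the filter through the Srci1 TH17 libraries alone. Some members of this family are close in sequence, so the division of reads among those is uncertain. Whether this touches Ly6g or Ly6c2 was not tested.

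**Figure D5:**
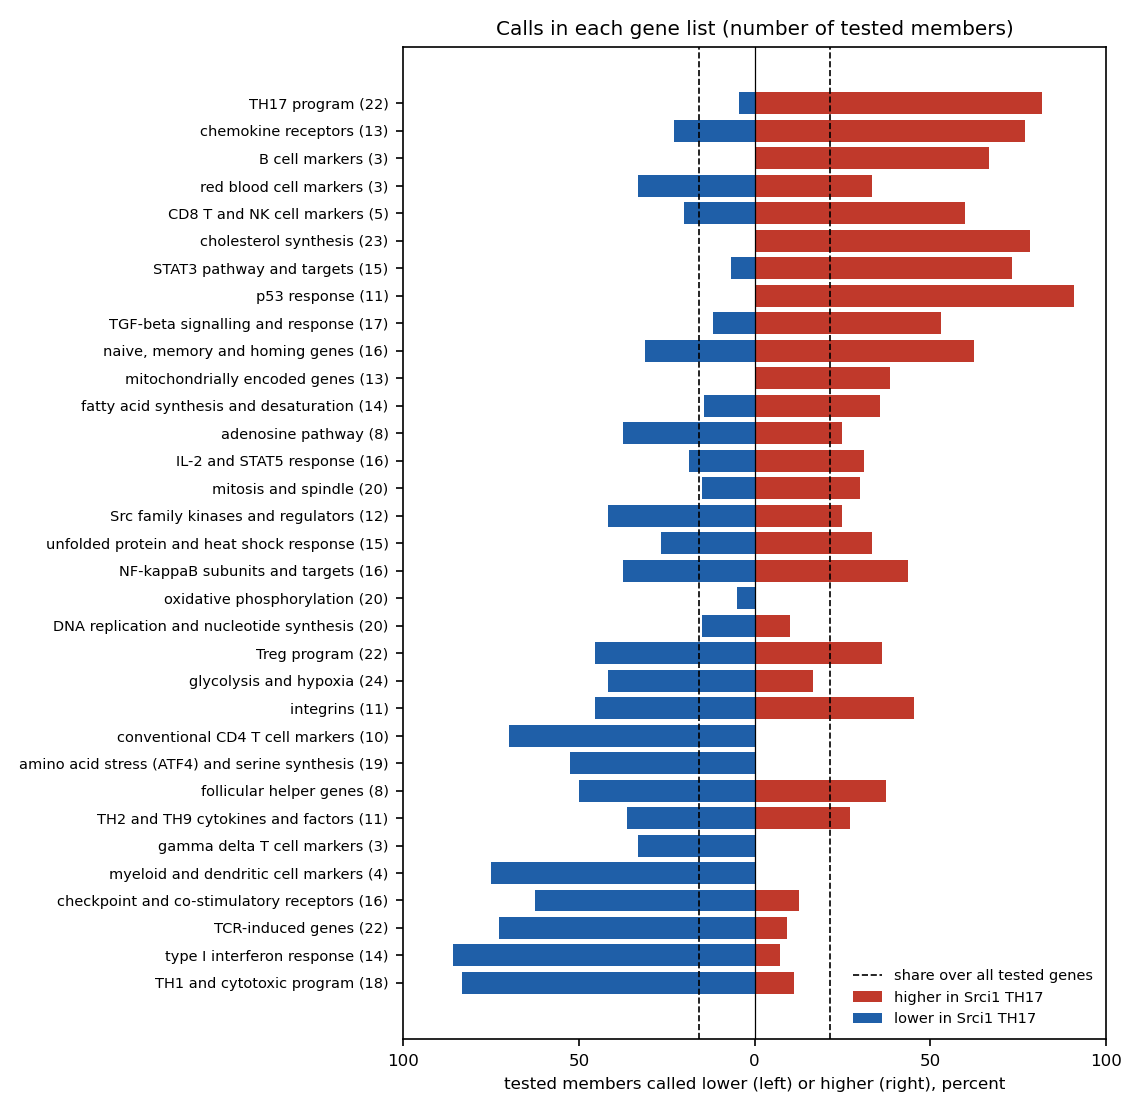
Percent of the tested members of each gene list that were called lower (left, blue) or higher (right, red) in Srci1 TH17 than in DMSO Treg cultures, with the number of tested members in brackets and lists ordered by median difference. Dashed lines mark the 15.7% and 21.4% called lower and higher over all tested genes. The TH1 and cytotoxic, interferon and TCR-induced lists reach furthest left and the p53, TH17 and cholesterol lists furthest right among lists of more than 5 members.

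The labelled cell type was checked against T cell and other markers. The marker counts below stand beside 21.4% higher and 15.7% lower over all tested genes. All 10 conventional CD4 T cell markers were tested, and their summed TPM was 4134 to 4204 TPM in Srci1 TH17 and 4793 to 4824 TPM in DMSO Treg libraries. Of these, 7 were lower in Srci1 TH17 cultures and none was higher, with Cd4 at 190.2 ± 8.21 TPM against 340.3 ± 14.2 TPM and Cd3g at 335 ± 6.95 TPM against 568 ± 33.3 TPM (limma adjusted p = 2.4e-05 and 6.94e-08). The markers of other cell types below are given for their whole lists, including some named after their values were seen. Of 8 B cell markers, 3 were tested and 2 were higher. Ighm, the immunoglobulin heavy chain constant gene, held 543, 508 and 533 TPM against 161, 159 and 162 TPM (limma adjusted p = 2.09e-11), while Ms4a1, the gene of the B cell antigen CD20, was listed at 0 in all Srci1 TH17 libraries and held 0.36, 0.27 and 0.06 TPM in Treg libraries. The B cell genes Cd79a, Cd79b and Pax5 were at 1.21 TPM or less in every library, so the B cell sums of 515 to 548 TPM and 163 to 167 TPM rest on Ighm.

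Of 12 myeloid and dendritic markers, 4 were tested and 3 were lower, and all 4 belong to the MHC class II pathway. Their list summed to 78.5 to 96 TPM in Srci1 TH17 and 158 to 163 TPM in DMSO Treg libraries, with Cd74 at 55.5 ± 5.7 TPM against 118 ± 1.18 TPM (limma adjusted p = 9.16e-07). Lyz2 and S100a8 were listed at 0 in all 6 libraries, and Itgam, Csf1r, Cd14, Adgre1, Itgax and Flt3 were at 0.83 TPM or less. Of 11 CD8 T and NK cell markers, 5 were tested, and the list summed to 162 to 216 TPM and 34.9 to 38.4 TPM. The lectin-like receptor genes Klrd1 (104, 77.1 and 86.1 TPM against 1.86, 2.55 and 4.19 TPM) and Klrc1 (96.9, 71.2 and 74.3 TPM against 11.3, 10.5 and 9.43 TPM), whose products pair as CD94 and NKG2A, were higher (limma adjusted p = 4.02e-10 and 1.3e-06). Cd8b1 was at 7.93 ± 1.75 TPM against 4.33 ± 0.435 TPM (limma adjusted p = 0.00151), Cd8a and Gzma at 0.76 TPM or less, and Klrb1c, Ncr1, Klra1 and Gzmk at 0 in all 6 libraries. Prf1 was the lower member, and Klrk1 was also called lower without Srci1 TH17 replicate 3 or Treg replicate 3.

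Of 7 matched γδ T cell markers, 3 were tested. The list summed to 14.7 to 21.1 TPM and 24.5 to 30.1 TPM, the γ chain gene Tcrg-C2 was lower (7.88 ± 0.952 TPM against 13.97 ± 2.5 TPM, limma adjusted p = 0.00214), and Trdc, the δ chain constant gene, was at 0.66 TPM or less. Of 7 red blood cell markers, 3 were tested. Hbb-bt was listed at 0 in all Srci1 TH17 libraries and held 6.35, 6.02 and 10.9 TPM in Treg libraries, while Hba-a2 held 2.52, 1.22 and 3.22 TPM in Srci1 TH17 libraries and was listed at 0 in all Treg libraries. Both passed the test (limma adjusted p = 2.65e-09 and 0.0258), but the call on Hba-a2 was lost without any 1 library other than Srci1 TH17 replicate 2, and Hba-a1, Hba-a2, Hbb-bs and Hbb-bt are near-identical pairs. Hbb-bt met the filter through the Treg libraries alone, and Hba-a2 through the Srci1 TH17 libraries alone. The erythroid gene Alas2 was at 0 in all 6 libraries. The part that these marker differences play in the results above was not tested.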

How the data were processed

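Poly(A) RNA libraries were sequenced from T cell cultures, and the authors deposited 1 table of TPM values per gene and library. The submitters' processing notes name the tools RSEM 1.3.3 and STAR 2.7.9a and the build GRCm38, with no role or order given. TPM is normalized for length and library total, so a large change in a few abundant genes shifts all others, and depth is unknown. Groups came from the cell type, genotype and treatment in the labels.

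A gene was tested where 3 or more of the 6 libraries compared held 1 TPM or more. Values were transformed to log2(TPM + 1) and fitted with limma 3.58.1 in R 4.3.3, with 1 mean for each of 5 groups over all 15 libraries and a mean-variance trend. The contrast was Srci1 TH17 minus DMSO Treg, with Benjamini-Hochberg adjustment over all tested genes and 95% intervals. The procedure was tested on simulated data. No 2 libraries held identical values.

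Of 530 entries in 33 gene lists, 521 were matched by symbol, and 54587 of 55421 identifiers had one. The members and lists were chosen with earlier results of these data known. Genes named were a set of lineage and pathway genes, the 15 largest called differences each way with at least 5 TPM in a group and no overlap (leaving out unnamed models, pseudogenes, mitochondrial genes and receptor segments), all members of the Treg and TH17 programs, up to 5 members of each other list with the smallest adjusted p, and the 3 genes most like Foxp3. A few list members are counted in their lists and otherwise not reported here. Coordinates are GENCODE M21 (GRCm38), and promoters, from 250 bases before to 50 after a start, are from RefSeq (GRCm38.p6). Alternatives were other pseudocounts, filters, scalings, library weights and models, the replicate number as a block, and leaving out each library.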

Additional observations from a re-analysis of the deposited data

How the results depend on the processing

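Under the 17 alternatives no called gene was called in the opposite direction. Of 178 named genes that were called, 157 were tested in every alternative, of which 150 kept their call in each. The other 21 were not tested with the 5 TPM filter (16) or the rescaling that leaves out mitochondrial genes (5), and 19 of them kept their call wherever tested. Calls were lost for Aurka, Capg, Cd247, Cdc6, Gpr83, Hba-a2, Nt5e, Pcna and mt-Atp8. Leaving out 1 library at a time gave 2104 to 2219 genes higher and 1546 to 1696 lower, and array weights, whose estimation stopped before convergence, gave 3361 and 2512. The replicate block gave 2475 and 1824. What same-numbered libraries share beyond the number is not stated in the labels. Their deviations from the group means correlated at r = 0.015, 0.05 and 0.007, and not every library correlated best with its own number. With 3 libraries a group, these values cannot tell whether a mouse or a batch was shared. After median-of-ratios scaling 51.2% of calls were higher, against 57.7% as deposited and 51.9% after quantile normalization. The Treg program had 6 to 9 members called higher and 8 to 11 lower over all alternatives, and the TH17 program 14 to 19 higher; which genes these were was not compared. With only the 6 libraries compared in the model, 2 TH17 program genes were lower instead of 1, Fosl2 being added. Ctla4 passed the test after median-of-ratios scaling without and with the replicate block (limma adjusted p = 0.0186 and 0.0294), with only the 6 libraries (0.0189) and with array weights (0.00718). Capg lost its call after median-of-ratios scaling (0.128). Genes that were not called changed sign in 3 cases, and over the fits that leave out 1 library their differences ran from -0.004 (without Treg replicate 2) to 0.138 for Ebi3, from -0.099 (without Treg replicate 1) to 0.375 for Ikzf2 and from -0.333 to 0.151 (without Srci1 TH17 replicate 2) for Tcrg-C1. For the called gene mt-Atp8, the difference between the groups was at 0 after quantile normalization, so its direction was not kept there. Of 62 other list counts, 35 stayed within 1.5-fold in every alternative. The causes were not tested. What sequencing depth limits cannot be read from TPM.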
